A study of Mus musculus with 10 samples.

Results

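The interval described here was a stretch of mouse chromosome 5 (build mm9) named for Abcg3 and a cluster of guanylate-binding protein genes (Gbp4, Gbp6, Gbp8 and Gbp9). Its members were the array probes on chromosome 5 that start between 104700000 and 106000000, which gave 93 probes, from 104702322 to 105985867, of 10174 on chromosome 5 and 161460 on all autosomes. The interval was chosen by measured values: its log2 ratios gave called segments of raised signal in these same animals, so the raised signal is given as a description. The files pair probes with coordinates and not with genes, and the only gene annotation at hand was of GRCm38.p6. None of the 5 genes was therefore tied to a probe, and every value below belongs to a probe position.

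Guanylate-binding proteins are interferon-induced GTPases that gather on vacuoles and on microbes inside a cell and take part in cell-autonomous defence and inflammasome activation. In mice their genes form clusters of closely related copies, the kind of sequence in which copy number often differs between inbred strains and in which one probe can bind more than one copy. Abcg3 belongs to the ABCG family of half-transporters, which is best known for sterol and drug export. In the RefSeq annotation of GRCm38.p6, used for gene order alone, 28 genes lie between Pkd2, which encodes the polycystin-2 channel, and Lrrc8b, which encodes a subunit of volume-regulated anion channels. Of these, 11 are protein-coding, 11 pseudogenes, 1 a transcribed pseudogene, 4 lncRNA genes and 1 an snRNA gene. The protein-coding genes and the transcribed pseudogene, Gbp11, run in the order Thoc2l, Zfp33b, Gm31255, Gm20385, Zfp951, Abcg3, Gbp8, Gbp9, Gbp4, Gbp10, Gbp6 and Gbp11. Between Pkd2 and Abcg3 alone there are 14 genes, 9 of them pseudogenes. Which of these the raised probes lie in was not determined.

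Liver DNA of 10 mice was measured by array comparative genomic hybridisation, Cy5 marking the animal and Cy3 a pool of C57BL/6, SJL and DBA DNA in equal amounts. The 5 ICSI-derived animals came from ZFLacZ testis cells frozen for 14 years, whose sperm were injected into oocytes of DBA x C57BL/6 females. The 5 naturally born animals descended from that transgenic line too, which goes back to SJL and C57BL/6, and the labels call them wild-type adults. By label, 3 males and 2 females made up either group. The DBA contribution and the mode of conception go together and cannot be told apart. The labels do not say whether animals of a group share parents, and arrays of single inbred strains were not analysed here. Both groups carry the same growth text, so the groups were taken from the sample descriptions.

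All values are log2 ratios of the animal's signal over the pool's, centred on each array's autosomal median, so 0 stands for a typical autosomal probe. A raised ratio in every animal cannot be told apart from a low content of the pooled reference, and a ratio gives no number of copies. Arrays lay on 3 slides: ICSI-derived animals 1 and 2 and naturally born animals 1 and 2 on the first, animals 3 and 4 of both groups on the second, and animal 5 of each group on the third. The array of naturally born animal 3, labelled male, lay between the sexes on chromosomes X and Y, at -0.033 and -0.0072, so the main results are also given without it. It lay between the other animals at some autosomal loci too. On chromosome 1 from 173457380 it was at -0.77, the others at -0.36 or above or at -1.77 or below. On chromosome 17 from 30586287 it was at -0.12, the others at 0.11 or above or at -0.32 or below. On chromosome 4 from 112627357 it was lowest, at -1.70. The reason was not tested. Noise between neighbouring probes was between 0.14 and 0.21 on the log2 scale, and the SD of repeated spots of a probe between 0.11 and 0.13.

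The interval stood out by raised probes near its centre. Averaged over the 10 animals, 15 of the 93 probes (16.1%) had a ratio of at least 0.25, where 3.53% of autosomal probes did, and 3 (3.23%) had a ratio of at most -0.25, against 1.78%. In all 10 animals at once, 6 probes (6.45%) were at 0.25 or above, against a background of 0.409%. Of these 6, 5 lay between 104993639 and 105237345. The interval was chosen for such values, so nothing is read from these shares. The median probe of the interval had a mean ratio of 0.056, against -0.0019 on all autosomes. At the borders the values were ordinary: the last probe before the lower border averaged 0.083 and the first inside -0.15, while the last inside the upper border averaged 0.021 and the next outside -0.12.

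**Figure D1:**
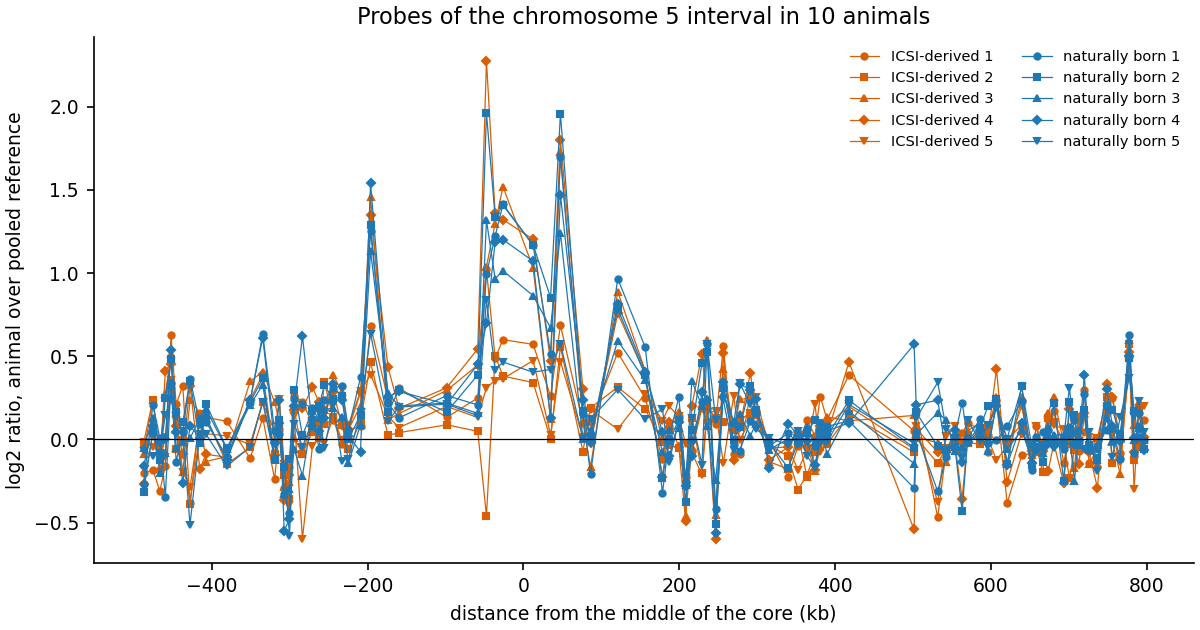
Log2 ratio of each of the 93 probes (vertical axis) against distance in kb from the middle of the core (horizontal axis), with 1 line per animal, orange for ICSI-derived and blue for naturally born. Core means run from 0.22 to 1.45, and the probe at -196 kb has a like height and spread. A few other probes, such as those at 104906221 and 105691096, also spread by more than 1 but around 0, and most of the rest of the interval stays near 0.

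Splitting all 10 profiles of chromosome 5 jointly, without group labels, set apart a core of 6 probes from 105142362 to 105237345, about 95 kb long. Mean core levels were 0.60, 0.22, 1.12, 1.41 and 0.33 in ICSI-derived animals 1 to 5. They were 1.17, 1.45, 1.01, 0.96 and 0.52 in naturally born animals 1 to 5. All 10 animals lay above 0, and both groups held high and low animals. In rising order the animals were ICSI-derived 2, ICSI-derived 5, naturally born 5, ICSI-derived 1, naturally born 4, naturally born 3, ICSI-derived 3, naturally born 1, ICSI-derived 4 and naturally born 2. The widest step in that order, 0.35, fell between ICSI-derived animal 1 and naturally born animal 4. All other steps were between 0.042 and 0.24. The core probes scatter around each animal's mean, and no ranking is read from those smaller steps. Low animals carried both sex labels, as did high ones. Both animals of the third slide were low and all 4 of the second were high, while on the first slide the ICSI-derived animals were low and the naturally born ones high. The part of the slide in this order was not tested.

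The core probes differed in brightness, which sets how far each can be trusted. The probe at 105153470 to 105153522 was well above background on every array, with a Cy3 signal higher than that of 67.7% of autosomal probes. Its ratios were 0.49, 0.50, 1.30, 1.36 and 0.35 in ICSI-derived animals 1 to 5 and 1.22, 1.34, 0.97, 1.19 and 0.42 in naturally born animals 1 to 5. At this probe ICSI-derived animals 1, 2 and 5 and naturally born animal 5 lay at or below 0.50, and the other 6 at or above 0.97.

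The probe at 105202209 to 105202268, brighter than 38.8% of autosomal probes in Cy3, gave 0.57, 0.34, 1.03, 1.20 and 0.47 in ICSI-derived animals. In naturally born animals it gave 1.17, 1.17, 0.86, 1.07 and 0.40. The same 4 animals were lowest, with a gap of 0.29 to the next. At 105163577 to 105163629 the ICSI-derived animals were at 0.60, 0.38, 1.52, 1.32 and 0.37 and the naturally born ones at 1.41, 1.41, 1.01, 1.20 and 0.47, again with those 4 lowest. That probe was dimmer, above 3.29% of autosomal probes in Cy3.

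The remaining core probes were less secure. The probe at 105237286 to 105237345 had the highest mean of the interval, 1.22, with values of 0.69, 0.56, 1.73, 1.80 and 0.47 in ICSI-derived and 1.69, 1.96, 1.24, 1.47 and 0.58 in naturally born animals. It was brighter than only 0.0706% of autosomal probes in Cy3. It fell short of well above background on the arrays of ICSI-derived animal 5 and naturally born animal 2 alone. The probe at 105142362 to 105142421 was not well above background on any array, and its spread, the widest of the interval, ran from -0.46 to 2.28 on signals near background. The probe at 105224653 to 105224712 was lower than its neighbours, at 0.26, 0.00, 0.12, 0.47 and 0.03 in ICSI-derived and 0.52, 0.85, 0.67, 0.13 and 0.42 in naturally born animals. It did not follow the order of the others. Over the 4 core probes well above background on all arrays the animals ranged from 0.31 to 1.19.

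Another processing of the signals moved the core probes, upwards at the brighter ones and downwards at the dimmer ones. It differed in background correction, left out the dye normalisation and added an offset of 50 to both channels. The part of each was not tested. With normexp on the median signals in place of the processed signals, the core mean over the 10 animals was 0.43 instead of 0.88. The probe at 105237286 fell to -0.015 and that at 105142362 to -0.11. The probe at 105163577, well above background on all arrays, fell from 0.97 to 0.29, with animals from -0.10 to 0.63, and that at 105224653 fell from 0.35 to 0.014. The brighter probes rose, from 0.83 to 1.24 at 105202209 and from 0.91 to 1.15 at 105153470. Over the 4 probes well above background the animals then ranged from 0.25 to 1.07. ICSI-derived animals 1, 2 and 5 and naturally born animal 5 had the lowest core means in the main data and in each of the 6 other settings of centring, correction, source table and filter.

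**Figure D2:**
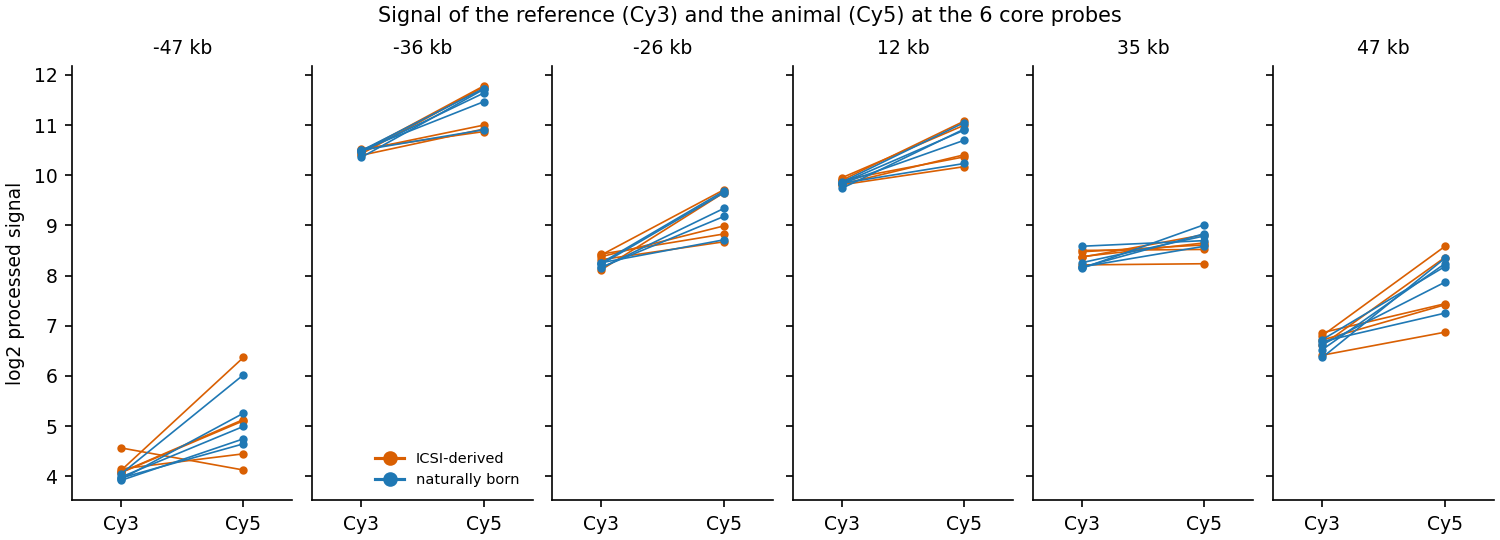
Log2 processed signal of the reference pool (Cy3) and of the animal (Cy5) at the 6 core probes, in panels ordered by distance from the middle of the core, with 1 line per animal. At the second panel Cy3 varies by 0.17 between arrays and Cy5 by 0.91, and in the first and last panels both signals lie far below those of the second and the fourth.

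The spread between animals lay in the Cy5 channel, which holds the animal's DNA. At the bright probe at 105153470 the log2 Cy3 signal varied by 0.17 over the 10 arrays and the Cy5 signal by 0.91. At 105202209 the ranges were 0.21 and 0.91. The smallest difference between the channels was at 105224653, with 0.44 in Cy3 and 0.78 in Cy5. These ranges come from signals before centring and include differences in overall brightness between arrays.

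Segmentation animal by animal called 10 gain segments and no loss in the interval, in 3 of 5 ICSI-derived and 5 of 5 naturally born animals. A gain segment of at least 1 animal held 19 probes (20.4%) of the interval and 0.356% of autosomal probes, and one of at least 8 animals held 6 probes (6.45%) against 0.0142%. The rule that gave the interval used these segments, and without naturally born animal 3 there were 7 animals with one. In naturally born animals 1, 2 and 3 the segment was the core itself. In ICSI-derived animals 3 and 4 the core was joined on its lower side by a second, weaker segment of 9 probes at 0.38 and of 6 probes at 0.52, which began at 104945840 and 104980729. In ICSI-derived animal 1 and naturally born animal 4 a single segment of 15 probes ran from 104993639 to 105346102, at 0.41 and 0.66. In naturally born animal 5 it held 11 probes at 0.40 and ended with the core at 105237345. No segment was called in ICSI-derived animals 2 and 5, whose core means of 0.22 and 0.33 were nevertheless above 0. With a stricter penalty 7 animals had a call, and with normexp 6.

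Outside the core the raised signal was uneven. The probe at 104993639 to 104993698, at -196 kb from the middle of the core, gave 0.68, 0.46, 1.46, 1.35 and 0.39 in ICSI-derived animals. In naturally born animals it gave 1.25, 1.29, 1.13, 1.54 and 0.64. It was well above background on all arrays and split the animals as the core did, with the same 4 lowest and a gap of 0.45 to the others. The order within the upper 6 was another, with naturally born animal 4 highest. On the far side, the probe at 105310817 to 105310876 was at 0.52, 0.31, 0.89, 0.76 and 0.06 in ICSI-derived and 0.97, 0.78, 0.59, 0.81 and 0.30 in naturally born animals. There the lower and upper animals were closer together.

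Over the 13 probes that lay in a called segment but not in the core, animal means ran from 0.12 to 0.38. The 74 probes beyond all called segments had animal means between 0.010 and 0.065. The median distance between probes was 10741 bp, close to the 10843 bp of the autosomes, and the widest gap was 83622 bp, so the ends of the raised stretch are known only to within the distance to the next probe.

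Several single probes stood on the same side of 0 in all animals, in either direction. The probe at 105967474 to 105967533 lay between 0.37 and 0.63 in all 10, and that at 104737553 to 104737612 between 0.24 and 0.63. The lowest probes were those at 104889585, 104882784 and 105397939, with means of -0.33, -0.28 and -0.29. Each was below 0 in every animal, although with normexp the probe at 105397939 reached 0.074 in 1 animal. The probe at 104906221 was among the 3 with the widest range, from -0.60 to 0.62, and did not split the animals as the core did. With normexp its range was from -0.29 to -0.014, so its width depended on the processing of the signals.

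**Figure D3:**
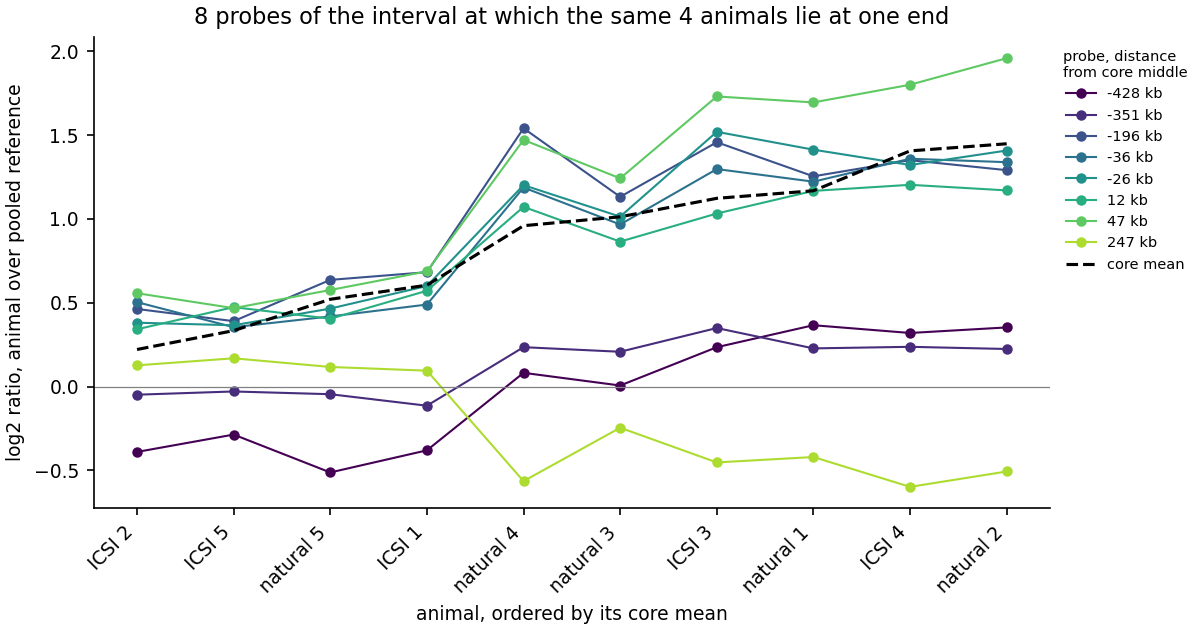
Log2 ratio (vertical axis) of 8 probes of the interval in each animal, ordered from left to right by core mean (dashed line), with colour giving the probe's distance from the middle of the core. At 7 of the probes ICSI-derived 1, 2 and 5 and naturally born 5 lie lowest, and at the probe 247 kb after the middle they lie highest, between 0.095 and 0.17.

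Probes that split the animals as the core did were counted over all autosomes. ICSI-derived animals 1, 2 and 5 and naturally born animal 5 were the 4 lowest, with a gap above 0.2 to the next animal, at 7 of the 93 probes (7.53%) and at 11 of 161460 autosomal probes (0.00681%). The animals had been taken from the core, so the 4 core probes among the 7 follow from that choice. At those 4 probes naturally born animal 3 was the next animal, so its array set the gaps. The other 3 lay at 104761936, 104839081 and 104993639, at -428, -351 and -196 kb from the middle of the core. The opposite order, with the same animals highest, was found at 1 probe (1.08%) of the interval against 0.00248% of autosomal probes. That probe, at 105436532 to 105436591, gave 0.095, 0.13, -0.45, -0.60 and 0.17 in ICSI-derived and -0.42, -0.51, -0.25, -0.56 and 0.12 in naturally born animals.

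At both of the farthest of these probes the low animals lay below 0 and the others above. At 104761936 the ratios were -0.38, -0.39, 0.23, 0.32 and -0.29 in ICSI-derived and 0.37, 0.35, 0.01, 0.08 and -0.51 in naturally born animals. At 104839081 they were -0.11, -0.05, 0.35, 0.24 and -0.03, and 0.23, 0.22, 0.21, 0.23 and -0.05.

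Counted with any gap, the shared split was commonest within 1 Mb of the middle of the core. Leaving the core probes out, it was found in either direction at 6 of 80 probes (7.50%) within 1 Mb before the middle of the core and at 6 of 72 (8.33%) within 1 Mb after it. From 1 to 2 Mb after the middle it was found at 1 of 57 probes (1.75%), and from 1 to 2 Mb before it at 0 of 89. From 2 to 20 Mb the shares were 0.681% before and 1.34% after, and farther out 0.755% before and 0.507% after. Over all autosomes the share in either direction was 0.697%, with the 4 animals lowest at 0.348% and highest at 0.349% of probes. Beyond 1 Mb the shares thus lay on both sides of the background. The split was not confined to 1 Mb, however. At 2.27, 2.43, 2.95, 4.66, 5.74 and 6.29 Mb after the middle the 4 animals were lowest with gaps between 0.13 and 0.19. Gaps with the 4 highest, written as negative, ran from -0.0038 to -0.034 between 2 and 20 Mb after the middle. Without naturally born animal 3 the split was found in either direction at 15 probes of the interval (16.1%) and at 1.11% of autosomal probes, since fewer animals have to be in order. With a gap above 0.2 the 4 animals were then lowest at 8 interval probes (8.60%) and at 0.00929% of autosomal probes. Neighbouring probes share the same DNA and arrays and are not independent, and these shares carry no test.

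**Figure D4:**
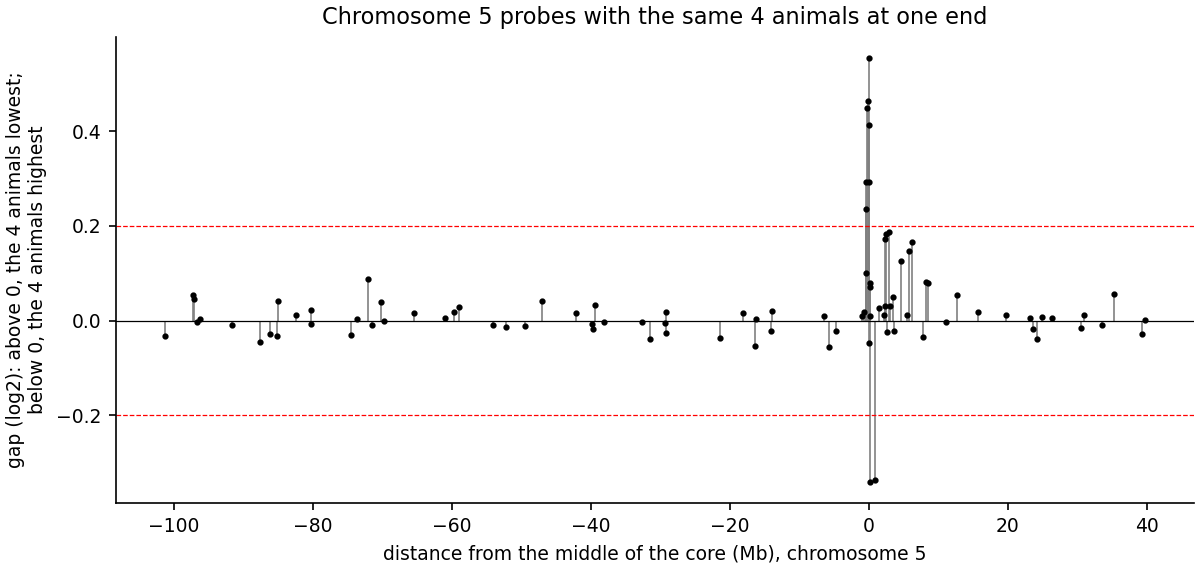
Gap in log2 ratio between ICSI-derived 1, 2 and 5 with naturally born 5 and the other 6 animals, for each chromosome 5 probe at which the 4 are lowest (above 0) or highest (below 0), against distance in Mb from the middle of the core. On this chromosome gaps beyond 0.2 (dashed lines) occur only within 1 Mb of the core, at 7 probes above and 2 below 0. Smaller gaps above 0, up to 0.19, occur between 2.27 and 6.29 Mb after the middle.

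The study compared animals from long-frozen germ cells with naturally born ones, and in this interval no difference between the groups passed a test. The mean over all 93 probes was 0.096, 0.039, 0.16, 0.16 and 0.053 in ICSI-derived animals 1 to 5 and 0.16, 0.19, 0.12, 0.16 and 0.084 in naturally born animals 1 to 5. The groups overlapped. Their means were 0.10 ± 0.06 and 0.14 ± 0.04 (SD, n = 5 each), a difference of -0.04 (exact permutation test, two-sided, p = 0.27, where the smallest p possible is 0.00794). Without naturally born animal 3 the difference was -0.045 (exact permutation test, p = 0.254). It was -0.11 within the first slide and 0.023 within the second (exact permutation test, p = 0.333 for each, the smallest possible there). The direction thus differed between these slides. The positive value within the second came mostly from naturally born animal 3, at 0.12, since the other animals there were at 0.16. On the third slide, with 1 animal a group, ICSI-derived animal 5 was at 0.053 and naturally born animal 5 at 0.084. With the slide as a block the difference was again -0.04 (exact permutation test within slides, p = 0.25). Whether the slide itself shifts the values was not tested.

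In the limma fit of all autosomal probes, with group and sex, 0 of the 93 probes were called at an adjusted p under 0.05, against 32 of 161460 (0.0198%) over the autosomes. Of these 32, 25 were higher in ICSI-derived animals (0.0155%) and 7 lower (0.00434%). At an unadjusted p under 0.05 there were 2 (2.15%) against 3.27%. They were the core probe at 105224653, where ICSI-derived minus naturally born was -0.34 ± 0.12 on the log2 scale (SE, limma, unadjusted p = 0.0155), and the probe at 105721413, with -0.29 ± 0.12 (SE, limma, unadjusted p = 0.0247). Both were far from the threshold after adjustment. At 105721413 the log2 signal before centring ranged by 1.71 over the arrays in Cy3, the reference, and by 1.80 in Cy5. The core averaged 0.74 ± 0.51 for ICSI-derived and 1.02 ± 0.34 for naturally born animals (SD over 5 animals a group), and their difference was smaller than either SD. Without naturally born animal 3 the naturally born mean was 1.02 ± 0.39 (SD over 4 animals), and the probe at 105224653 differed by -0.31 (limma, unadjusted p = 0.0379).

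The same held in windows of fixed size. Of 13 windows of 100 kb, 0 were called by limma, against 3 of 20941 over the autosomes (0.0143%), and 0 had an unadjusted p under 0.05, against 3.01%. In the window from 105100000 the ICSI-derived animals were at 0.69 ± 0.53 and the naturally born ones at 0.89 ± 0.29 (SD, n = 5 each), a difference of -0.20 ± 0.22 (SE). In the next window they were at 0.42 ± 0.23 and 0.59 ± 0.19, a difference of -0.17 ± 0.11 (SE, limma, unadjusted p = 0.145). Without naturally born animal 3 the 2 differences were -0.21 and -0.18. In the last window, from 105900000, the spread was far smaller, at 0.07 ± 0.01 and 0.08 ± 0.01. In the windows from 105100000 and 105200000 the spread within each group leaves room for a group difference that 5 animals a side cannot resolve.

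**Figure D5:**
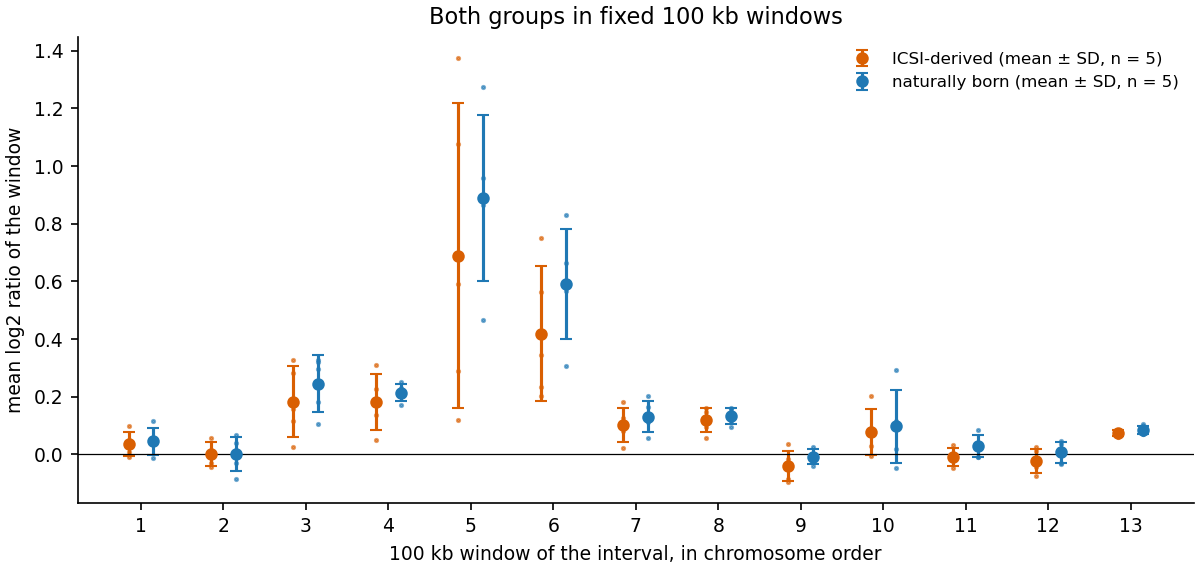
Mean log2 ratio of the 13 windows of 100 kb in chromosome order, with a small point per animal and the mean ± SD (n = 5) of each group. The groups overlap in every window, and windows 5 and 6, which hold the core, have the widest bars.

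Among 54 other loci at which segments were called in these animals, the one whose levels over the 10 animals were most like those of the core lay on chromosome 12 from 88825791 to 89611168 (Pearson r = 0.86). It ranged from 0.11 to 0.38, and a segment was called there in only 1 animal. The next were on chromosome 17 from 34117148 to 34226193 (r = 0.72) and on chromosome 3 from 93461477 to 93625084 (r = 0.57). Segments were called there in 1 and in 2 animals. The loci least like it were on chromosome 1 from 34606840 to 34639821 (r = -0.65), on chromosome 1 from 141582304 to 141678786 (r = -0.62) and on chromosome 17 from 35407675 to 35445040 (r = -0.60). These values describe 10 animals whose core levels fall to either side of a gap, they share arrays and centring, and they were picked as extremes of 54, so no p is given. Without naturally born animal 3 the values at these loci, in the same order, were 0.87, 0.71, 0.57, -0.67, -0.63 and -0.60.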

How the data were processed

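Liver DNA of 10 animals was hybridised to 2-colour Agilent arrays, 1 animal an array. The deposited scanner files hold, for each channel, processed intensities and uncorrected median spot and background intensities. Per the file headers, Feature Extraction 10.7.3.1 (CGH protocol) made the processed intensities by background subtraction and a linear dye normalisation. A value table deposited beside them repeats the scanner files' log10 ratios of Cy5 over Cy3. The submitters' processing notes name Partek 6.5 with no role. Coordinates are mm9, which 6 headers name, and the other 4 arrays carry the same coordinates.

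Control spots were left out, spots of a probe averaged, and log2 ratios of processed intensities centred on the autosomal median of each array. For autosomal probes, and for 100 kb windows with at least 3 probes, limma 3.58.1 was run in R 4.3.3 (group and sex, two-sided, Benjamini-Hochberg adjustment at 0.05). The probe step was tested on simulated data in which 200 of 161460 probes were changed. It recovered 0.0% of changes of 0.3, 84.5% of changes of 0.6 and 99.0% of changes of 1.0 on the log2 scale. The absence of a call therefore says nothing about changes near 0.3. The changed probes were drawn from all autosomes, where the median SD between animals was 0.10. At the core probes that SD was between 0.29 and 0.77, so the recovered shares do not hold there. At the core the absence of a call says little about larger changes either. Profiles were split by optimal partitioning (penalty factor 3, at least 5 probes, absolute mean of 0.25 or more, single probes drawn in to 4 robust SD of their 10 neighbours). The members, lists and tests were chosen with earlier results of these data known. Named probes were the 3 highest, 3 lowest and 3 of widest range, and others named were chosen after their values were seen. Gene lists, among them the guanylate-binding proteins of chromosomes 5 and 3, were planned and could not be tied to probes of mm9. Sequences of the probes were not used here. Alternatives were other centring, normexp (offset 50), the value table, filters, slide and replicate blocks, other settings of the segmentation, and leaving each animal out in turn. The headers give a signal over noise of 57.9 to 72.8 (Cy3) and 49.6 to 62.2 (Cy5). With arrays, their number limits precision.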

Additional observations from a re-analysis of the deposited data

Results flagged for a closer look

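At the probe at 104839081, naturally born animal 5 was at -0.046, while the other 4 naturally born animals lay between 0.21 and 0.23. The gap took up a share of 0.903 of the group's whole range. This probe had been named because ICSI-derived animals 1, 2 and 5 and naturally born animal 5 lay lowest there, so that animal's distance from its group follows from the choice of the probe. Of 58 sets of 5 values examined, 1 had such a value, and chance gives about 1 in 20. In the ICSI-derived group animals 1, 2 and 5 were also below 0 at this probe.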

How the results depend on the processing

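Of the values that answer a comparison, 120 under alternatives kept their direction, their side of the threshold and, for counts, a size within 1.5 times, 3 moved and 1 turned. Not all of the 120 could have left their side of the threshold. Within slide 1 the smallest p possible was 0.333 (exact permutation test). The 120 also include the interval's counts of 0, which say little where animals spread widely. No interval probe and no interval window of 100 kb was called under any alternative run, including the 50 kb and 200 kb windows. Over the autosomes, leaving out an animal gave between 26 and 77 called probes, the highest without ICSI-derived replicate 3, and between 2 and 10 called windows, the highest without ICSI-derived replicate 2. Windows of 50 kb gave 7 calls. The interval's group difference ran from -0.055 to -0.024 when an animal was left out (exact permutation test, p from 0.159 to 0.468), and turned to 0.023 within slide 2. Animals with a gain segment numbered 6 to 8 over the settings. Of the core mean, the single probe levels and the single group differences, 408 values under alternatives kept to theirs, 5 moved and 3 turned. A level that did not turn was counted as kept if it moved by less than the SD between animals. Leaving out an animal cannot move a mean that far. A group difference was counted as kept if its sign and its side of the threshold stayed. The count of 408 therefore says little about how stable these values are. The alternatives for the core mean and the probe levels were chosen after seeing the data. With normexp the probe at 105142362 turned to -0.11 and that at 105237286 to -0.015. The group difference at 105142362 ran from -0.76 to 0.024 when an animal was left out and turned only without ICSI-derived replicate 2 (limma, adjusted p close to 1), and over 177 alternatives of 9 probe and window differences the limma adjusted p was between 0.815 and 1.00.

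Replicate numbers did not pair the animals. Same-numbered animals of the groups correlated between -0.28 and 0.15. Among the naturally born animals, the one of the same number was not the most like for any ICSI-derived animal. With the replicate block limma called 25 autosomal probes and 0 in the interval, and the interval difference stayed at -0.04 (exact permutation test, p = 0.375). Ratios of the 2 core probes not well above background on all arrays are limited by their signal, the 10 animals limit the group comparison, and the probe spacing limits the borders.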
